A study of Camponotus fellah with 299 samples.

Results

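The genes described here are 100 gene models of the brain of the carpenter ant Camponotus fellah whose relation to social maturity had one sign in colonies 2 and 4 and the opposite sign in colony 3. They were taken from the 8183 gene models, of 14664 in all, with a median of 5 or more CPM (an ant's counts scaled to its own total). In each colony Spearman's rho of CPM with maturity was computed, each gene was scored by the smallest of its 3 absolute correlations where the signs were reversed in colony 3, and the 100 highest scores were kept. Of these, 79 had a positive correlation in colony 3 and negative ones in colonies 2 and 4, and they are called colony-3-rising below. The other 21 had the opposite signs and are called colony-3-falling. The split depends on the scaling: the 100 highest scores held 62 and 38 genes of these kinds with TMM-scaled CPM and 61 and 39 with DESeq2's size factors, and they shared 82 and 80 genes with the list described here. The genes were thus chosen by their measured correlations with maturity, which are given as a description, with no test.

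Single brains of 299 ants were sequenced, 90 of them from colony 2 and the rest split about evenly between colonies 3 and 4, and the labels give tallies of behaviour for 289 of them. The labels give no treatment, strain or genotype, so the groups are the 3 colonies, each a single colony, and the ants within them. Maturity is a label from 0 to 1, and the same 289 ants had it, 87 in colony 2, 98 in colony 3 and the rest in colony 4. In colony 4 it was turned to 1 minus the deposited value, because the deposited values there ran against age and with brood care, the opposite of the other colonies. Ants below 0.25 are called the low end and ants above 0.75 the high end. The low end held 38, 55 and 69 ants of colonies 2, 3 and 4, with median ages of 5, 11 and 10 months. The high end held 39, 24 and 24 ants, with median ages of 20, 31 and 29 months.

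In ant colonies young workers usually stay with the brood and the queen, and older workers move to the nest entrance and to foraging. Position in the network of contacts follows this change of task, and brain expression is known to differ between nurses and foragers. Workers of carpenter ants also vary in size, and size is tied to task in many species of the genus. The files do not pair the gene identifiers with gene names, so the roles of the members cannot be stated and the labelled tissue was not checked against brain markers.

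Each ant had between 19.8 and 73.2 M counted reads, with medians of 41.3, 38.3 and 37.2 M in colonies 2, 3 and 4. The members were well covered: no member had an ant with no read, and the lowest count of any member in any ant was 52. Depth moved with many genes. With the maturity rank of each colony in the model, log2 library size was called for 7792 of 10457 genes tested (74.5%) and for 65 of the 100 members (edgeR quasi-likelihood F-test, adjusted p below 0.05). Of the called colony-3-rising genes 36 were lower and 13 higher in deeper libraries, and of the colony-3-falling genes 10 were higher and 6 lower. All genes tested were split into 36.3% higher and 38.2% lower.

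The members' correlations with maturity were moderate. Among the colony-3-rising genes the median rho was -0.297 in colony 2, 0.278 in colony 3 and -0.345 in colony 4, and the highest rho in colony 3 was 0.504. Among the colony-3-falling genes the medians were 0.276, -0.282 and 0.320. The lowest score kept was 0.2049, that of the last member, and the first gene left out scored 0.2047. With library size partialled out, 84 of the 100 were again among the 100 highest scores. With ranks centred within runs of 10 consecutive ant numbers of a colony 57 were, and with Pearson's r of log2(CPM + 1) 45 were. The reversed signs themselves were found in 100, 100 and 99 of the members under these settings.

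Reversed signs were counted in more genes for colony 3 than for the other colonies. Signs opposite to the other colonies were found in colony 3 for 2126 genes (26.0% of 8183), in colony 2 for 775 (9.47%) and in colony 4 for 824 (10.1%), and 4457 (54.5%) had the same sign in all 3. With colony 4 taken as the reversed colony 5 genes reached the lowest score kept here, and with colony 2 none of the 8183 did, the highest score being 0.199. These are counts of correlations, with no test of the difference between colonies. In an edgeR model with a slope on maturity rank in each colony, a joint test of any difference in slope among the 3 colonies was called for 1933 of 10457 genes (18.5%) and for 99 of the members, whose choice used this contrast.

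The colony-3-rising gene evm.model.ctg71.42 had the highest score. In colony 2 its lowest, median and highest levels were 7.82, 11.4 and 17.1 CPM in low-end ants and 5.94, 9.21 and 16.7 CPM in high-end ants. Colony 3 gave 5.57, 9.14 and 13.5 CPM at the low end and 7.37, 12.7 and 18.4 CPM at the high end. The levels in colony 4 were 4.85, 11.3 and 21.3 CPM at the low end and 5.27, 9.11 and 17.3 CPM at the high end. The ranges of the ends overlapped in each colony, and the difference lay in the bulk of the ants: 20 of 24 high-end ants of colony 3 stood above the low-end median, against 11 of 39 in colony 2 and 5 of 24 in colony 4. The log2 ratios of the medians, high over low, were -0.31, 0.47 and -0.31 in colonies 2, 3 and 4.

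The next colony-3-rising gene, evm.model.ctg143.12, had more reads and smaller ratios between the ends. Its lowest, median and highest levels in colony 2 were 72.1, 87 and 108.2 CPM at the low end and 66.8, 78 and 100.9 CPM at the high end. In colony 3 they were 68.2, 82.4 and 98.8 CPM at the low end and 70.9, 88.8 and 119.02 CPM at the high end, and in colony 4 they were 69, 88.9 and 129.4 CPM and 62.1, 77.9 and 119.3 CPM. The ranges overlapped, with 19 of 24 high-end ants of colony 3 above the low-end median against 6 of 39 in colony 2 and 4 of 24 in colony 4. The log2 ratios of the medians were -0.16, 0.11 and -0.19.

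Of the colony-3-falling genes, evm.model.ctg15.77 had the highest score and was abundant. The lowest, median and highest levels were 594, 833 and 999 CPM at the low end of colony 2 and 701, 877 and 1131 CPM at its high end. In colony 3 they were 707, 881 and 1135 CPM at the low end and 540.1, 773 and 1037 CPM at the high end, and in colony 4 they were 497, 791 and 1209 CPM and 620.4, 882 and 1169.7 CPM. High-end ants stood above the low-end median in 6 of 24 cases in colony 3, in 27 of 39 in colony 2 and in 16 of 24 in colony 4, and all ranges overlapped. The log2 ratios of the medians were 0.075, -0.19 and 0.16.

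The other named colony-3-falling gene, evm.model.ctg63.26, showed the reversal in its ranks more than in its end medians. Low-end levels had a lowest, median and highest value of 31.6, 41.8 and 56 CPM in colony 2, of 38.5, 45.7 and 56.8 CPM in colony 3 and of 30.5, 41.7 and 56.5 CPM in colony 4. High-end levels were 32.8, 43.5 and 56.4 CPM, 32.7, 41.5 and 52.2 CPM, and 34.5, 41.3 and 52 CPM. The log2 ratio of medians was 0.059 in colony 2, -0.14 in colony 3 and -0.016 in colony 4, where rho was 0.305, so in colony 4 the end medians did not follow the sign of the correlation.

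**Figure D1:**
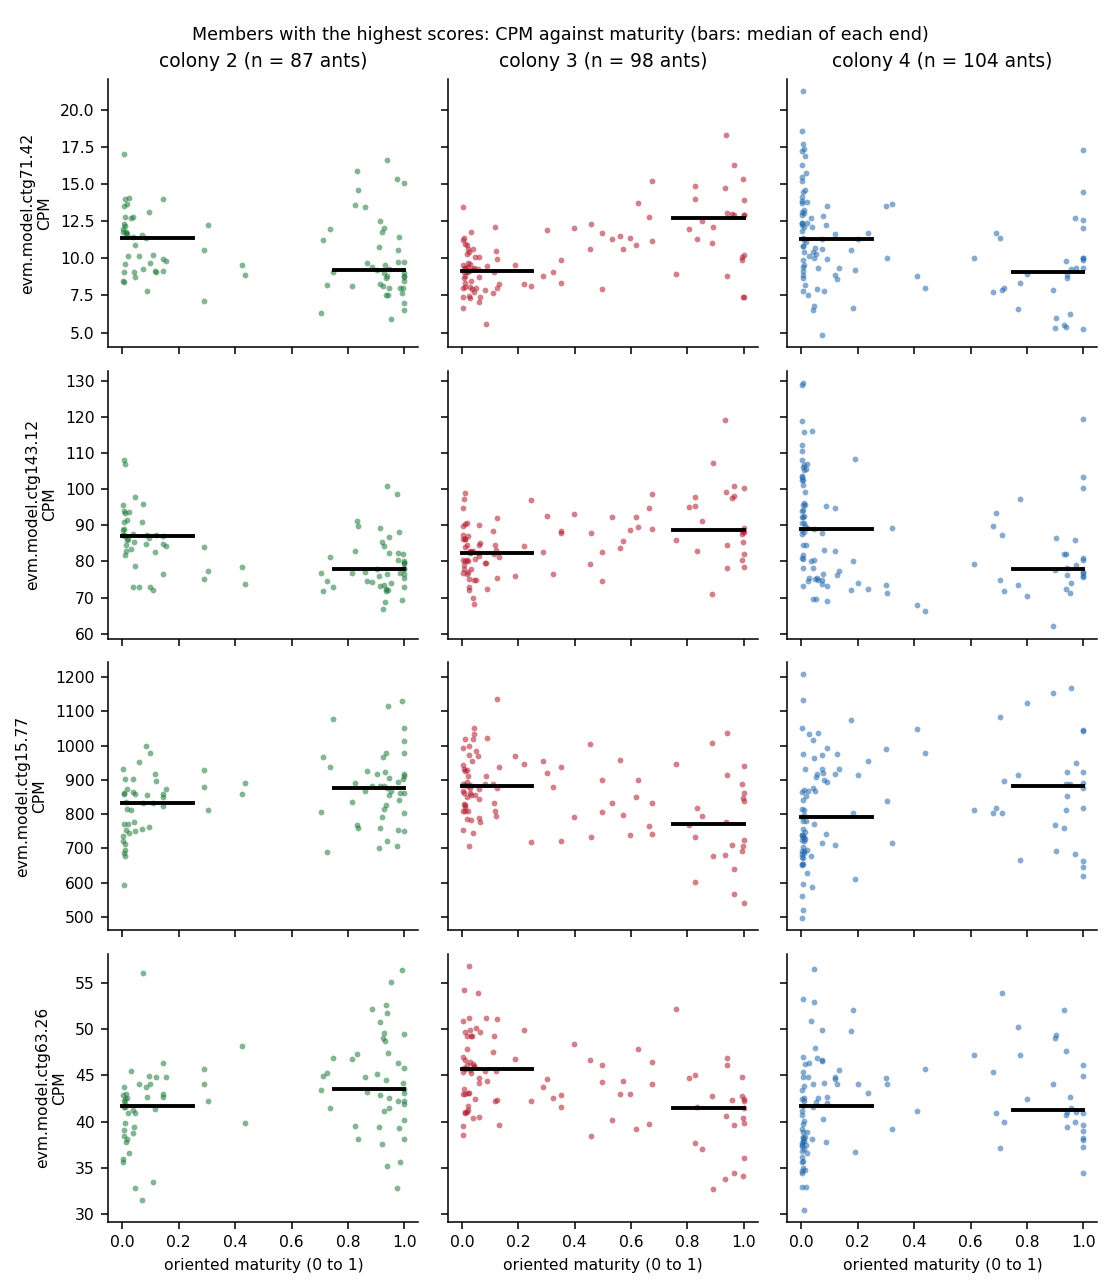
CPM of the 4 named members (rows) against oriented maturity in colonies 2, 3 and 4 (columns), 1 point per ant, with black bars at the median of the low and high ends. In evm.model.ctg71.42 the bars step from 9.14 up to 12.7 CPM in colony 3 and from 11.4 and 11.3 down to 9.21 and 9.11 CPM in colonies 2 and 4, over wide scatter.

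Over all members the differences between the ends were small. In the colony-3-rising genes the median log2 ratio of high-end over low-end medians was -0.097 in colony 2, 0.10 in colony 3 and -0.11 in colony 4, changes of -6.50%, 7.32% and -7.04%. In the colony-3-falling genes the medians were 0.075, -0.077 and 0.093, or 5.31%, -5.20% and 6.64%. The median absolute log2 ratio over all 8183 genes was 0.056, 0.061 and 0.071 in colonies 2, 3 and 4. Only 4, 7 and 6 of the 79 colony-3-rising genes, and 0, 1 and 0 of the 21 colony-3-falling genes, passed 0.25 log2 in colonies 2, 3 and 4. A few end medians went against the sign of the correlation: 4 colony-3-rising genes were higher and 1 colony-3-falling gene was lower at the high end of colony 4, and 1 colony-3-rising gene was lower at the high end of colony 3.

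**Figure D2:**
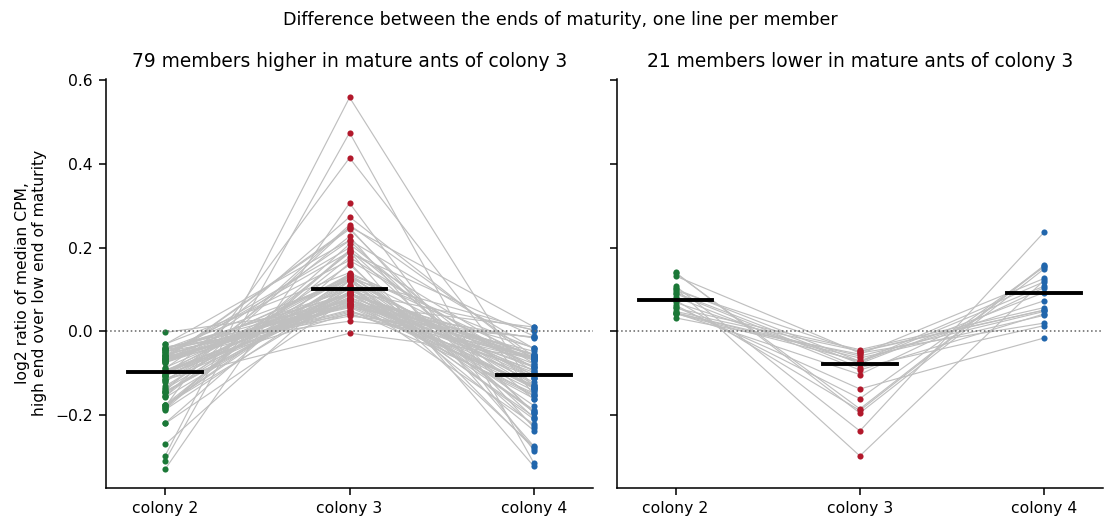
Log2 ratio of median CPM at the high end over the low end of maturity in colonies 2, 3 and 4, with 1 line per member, the 79 colony-3-rising genes on the left and the 21 colony-3-falling genes on the right. Black bars are the medians over members, at -0.097, 0.10 and -0.11 on the left and 0.075, -0.077 and 0.093 on the right; most lines bend at colony 3.

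To follow the course along maturity in single ants, the mean log2(CPM + 1) of the 21 colony-3-falling genes was subtracted from that of the 79 colony-3-rising genes. The genes were chosen for their signs with maturity, so an opposite course in colony 3 follows from the choice. The lowest, median and highest value of this balance was -1.86, -1.58 and -1.13 at the low end of colony 2 and -2.18, -1.77 and -1.21 at its high end. In colony 3 the values were -2.05, -1.75 and -1.38 at the low end and -1.96, -1.51 and -0.91 at the high end. Colony 4 had -2.02, -1.49 and -0.89 at the low end and -2.12, -1.77 and -0.99 at the high end. The high-end median of colony 3 thus lay near the low-end medians of colonies 2 and 4, and all ranges overlapped.

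Inside the ends the relation of the members to maturity was not always that over all ants. At the low end of colony 4 all 79 colony-3-rising genes had a negative rho with maturity (median -0.425, 69 ants) and all 21 colony-3-falling genes a positive one (median 0.442). At the high end of the same colony the signs turned, with a positive rho in 77 of the 79 (median 0.335, 24 ants) and a negative one in all 21 (median -0.519). In colony 3 the medians inside the ends were near 0, -0.025 and 0.070 at the low and high end for the colony-3-rising genes and 0.089 and -0.077 for the colony-3-falling genes, smaller than its correlation over all ants. Colony 2 had medians of -0.275 and -0.037 for the colony-3-rising and 0.310 and 0.032 for the colony-3-falling genes. These correlations share the ants that chose the members.

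**Figure D3:**
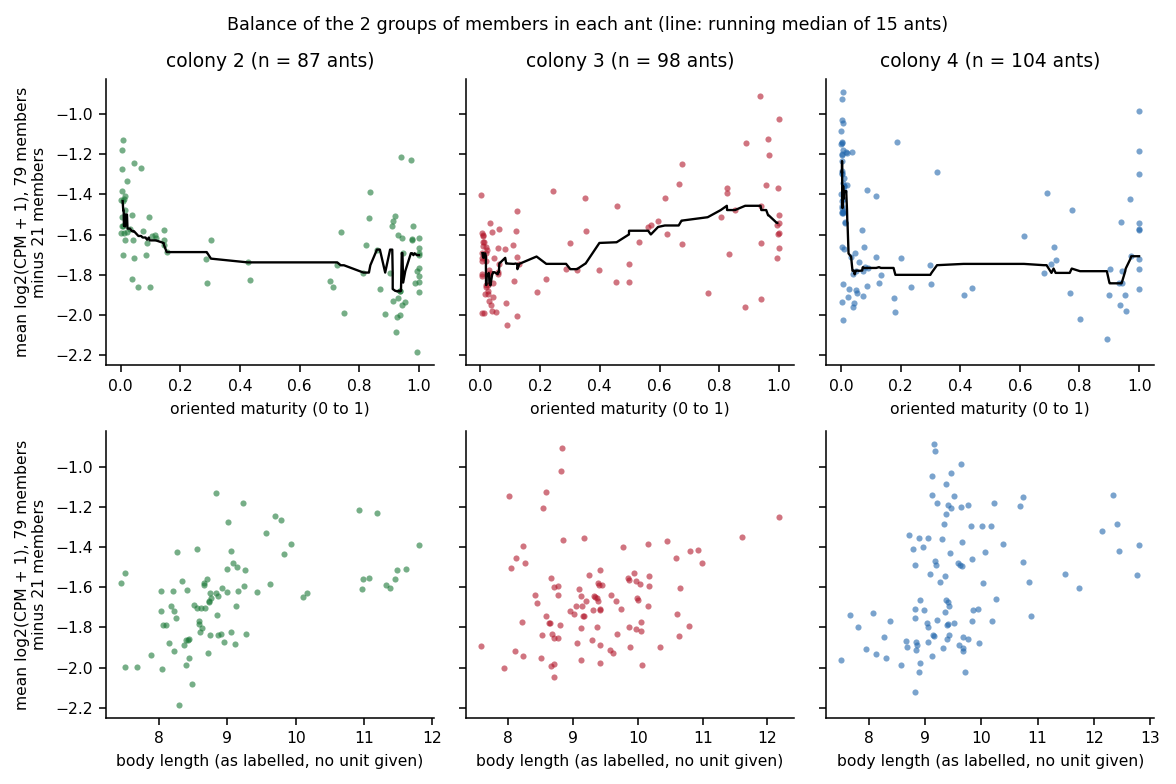
Balance of the members in each ant (mean log2(CPM + 1) of the 79 colony-3-rising genes minus that of the 21 colony-3-falling genes) against oriented maturity (top, with a running median) and against body length as labelled (bottom) in colonies 2, 3 and 4. The median balance at the low end, between the ends and at the high end was -1.58, -1.79 and -1.77 in colony 2. It was -1.75, -1.60 and -1.51 in colony 3 and -1.49, -1.75 and -1.77 in colony 4. Along body length the points tilt upwards, least in colony 3.

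Labels tied to maturity showed the same reversal, as a description of the same ants. The choice of the members by maturity carries over to such labels, so this is no separate finding. Median rho with age in the colony-3-rising genes was -0.176, 0.202 and -0.274 in colonies 2, 3 and 4. With the brood care tally it was 0.279, -0.317 and 0.341, and with the nurse-forage ratio, which was higher in mature ants, it was -0.254, 0.254 and -0.142. The colony-3-falling genes had medians of 0.131, -0.206 and 0.233 with age and of -0.308, 0.338 and -0.280 with brood care. For these labels the signs of colony 3 were opposite to those of the other colonies. With the nest cleaning tally they were not. Its medians were -0.101, -0.166 and -0.226 in the colony-3-rising and 0.126, 0.249 and 0.223 in the colony-3-falling genes.

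The members varied together between ants after their maturity rank was taken out. With the maturity rank removed within each colony, the median rank correlation between pairs of colony-3-rising genes was 0.318, 0.342 and 0.476 in colonies 2, 3 and 4, and between pairs of colony-3-falling genes 0.436, 0.393 and 0.509. Between a gene of one group and a gene of the other the medians were -0.320, -0.318 and -0.451. Over all pairs of the 8183 genes the medians were 0.0091, 0.016 and 0.023, with a median absolute correlation of 0.243, 0.228 and 0.242. So the members formed a block with opposite arms in these ants, and counts of members given below are not counts of independent genes. Only the rank of maturity was removed, and the members were chosen for like correlations with maturity in the same ants. How much of the block follows from that choice was not tested. The first component of the 100 members took 35.1%, 35.8% and 48.6% of their rank variance left after maturity.

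The block was not the main axis of variation of the brains. Over all 8183 genes the first component took 29.9%, 27.4% and 28.1% of the rank variance left after maturity in colonies 2, 3 and 4 and had a rho with library size of -0.494, -0.665 and -0.354, oriented so that the median correlation of the colony-3-rising genes is positive. That median was 0.053, 0.147 and 0.331, and 0.034, 0.013 and -0.101 for the colony-3-falling genes. On the third component, with 7.21%, 6.75% and 10.3% of the variance, the colony-3-rising genes had medians of 0.479, 0.534 and 0.474 and the colony-3-falling genes of -0.393, -0.610 and -0.640. Its rho with body length was 0.195, 0.396 and 0.499, and with library size -0.151, -0.084 and 0.078. The second component also carried members. In colony 2 its medians were 0.270 for the colony-3-rising and -0.536 for the colony-3-falling genes, and its rho was 0.570 with body length and 0.209 with library size. In colony 4, where it took 11.6% of the variance, the medians were 0.396 and -0.319, and rho was 0.236 with body length and -0.347 with library size. In colony 3 the medians were 0.214 and -0.029, and rho was -0.037 with body length and -0.253 with library size.

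Many genes outside the list varied as the members did. For evm.model.ctg71.42 and evm.model.ctg143.12 the gene most alike over 289 ants (maturity rank removed within colony) was another member, with rank correlations of 0.670 and 0.771, and 14 and 26 of the 99 most alike genes were members. For evm.model.ctg15.77 and evm.model.ctg63.26 the most alike gene was no member, at 0.721 and 0.686, and 4 and 13 of the 99 were members. Each of these members had the direction of the named gene.

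Position did not gather the members into large runs. The 8183 genes lay on 292 contigs and the members on 60 of them. Of these 60 contigs 36 held 1 member, and no contig held more than 5. Within 3 model numbers of each other stood 3 pairs of members, all with consecutive numbers, and 1 of these pairs had a common direction. The counts that 100 genes drawn from the 8183 would give were not computed. The typical level of the colony-3-rising genes, a median of 59.3 CPM, was near that of all 8183 genes (54.6 CPM), and that of the colony-3-falling genes was 139.9 CPM. Their coefficients of variation over ants had medians of 13.8% and 11.3%, against 14.8% for all 8183 genes. CPM carries no correction for gene length, so these levels compare read shares.

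Body length, which the choice of the members did not use, was tied to most of them over the 3 colonies together, and in one direction within each group. With the maturity rank of each colony in the model, 86 of the 100 members were called for body length, against 34.1% of the 10457 genes tested and 38.0% of the 8183 (edgeR quasi-likelihood F-test, adjusted p below 0.05, 289 ants). Among the colony-3-rising genes 65 of 79 rose with body length and none of the 79 fell, where 17.9% of all genes tested rose (88 of the 100 members had an unadjusted p below 0.05). Each of the 21 colony-3-falling genes fell, where 16.2% of all genes tested fell. The called members that had a positive rho with maturity in colony 3 thus rose with body length, and those with a negative rho fell. In colony 3 alone 4 of the 79 (5.06%) and 4 of the 21 (19%) were called, against 3.38% of all genes tested. With maturity not removed, median absolute rho with body length there was 0.086 and 0.118 in the 2 groups, against 0.104 for all 8183 genes. With the maturity rank in the model, the median slopes in colony 3 were 0.031 and -0.037 log2 per unit, against 0.038 and -0.050 in colony 2.

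The sizes were small but well above their errors. Body length is given with no unit; it ran from 7.45 to 12.8, with a standard deviation of 1.02, 0.838 and 1.02 in colonies 2, 3 and 4. For evm.model.ctg71.42 the slope was 0.13 ± 0.019 log2 per unit of body length (SE; edgeR adjusted p = 1.05e-09) and for evm.model.ctg143.12 it was 0.051 ± 0.0091 (SE; edgeR adjusted p = 8.44e-07). For evm.model.ctg15.77 it was -0.061 ± 0.013 (SE; edgeR adjusted p = 3.72e-05) and for evm.model.ctg63.26 it was -0.062 ± 0.0089 (SE; edgeR adjusted p = 1.06e-09). Over the called members the slopes ran from -0.12 to 0.21.

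The shortest and longest ants of each colony (25% each) show the sizes in CPM. In the 26 shortest ants of colony 4 evm.model.ctg71.42 had a lowest, median and highest level of 4.85, 8.35 and 14.1 CPM, and in the 26 longest of 8.31, 11.5 and 21.3 CPM. Colony 2 gave 5.94, 9.01 and 12.7 CPM in its 21 shortest ants and 8.42, 11.8 and 16.7 CPM in its 21 longest. Colony 3 gave 5.57, 9.25 and 18.4 CPM and 6.65, 9.78 and 15.2 CPM in 24 and 24 ants. The ranges overlapped in each colony, and the medians were nearest each other in colony 3. In the colony-3-falling gene evm.model.ctg63.26 the medians of the shortest and longest ants were 45.4 and 39.4 CPM in colony 2, 45.4 and 43.0 CPM in colony 3 and 44.9 and 40.5 CPM in colony 4. Over the colony-3-rising genes the median log2 ratio of the longest over the shortest ants was 0.11, 0.044 and 0.16 in colonies 2, 3 and 4, with 71, 61 and 77 of the 79 higher in the longest. Over the colony-3-falling genes it was -0.17, -0.062 and -0.13, with all 21 lower in each colony.

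The median slope on body length had the same sign in the 3 colonies. With a slope in each colony, the median slope of the colony-3-rising genes was 0.038, 0.031 and 0.055 log2 per unit in colonies 2, 3 and 4, positive in 70, 70 and 78 of the 79. The median of the colony-3-falling genes was -0.050, -0.037 and -0.054, negative in all 21 in each colony. Called in single colonies were 37, 4 and 58 of the colony-3-rising genes (46.8%, 5.06% and 73.4%), each rising. Of the colony-3-falling genes 14, 4 and 18 were called (66.7%, 19% and 85.7%), each falling. The shares of all genes tested were 20.1%, 3.38% and 17.7%. A difference between the colonies in the slope on body length was called by edgeR for 0 members (10 at an unadjusted p below 0.05) and for 0 of 10457 genes (0.0%; 1162 at an unadjusted p below 0.05; 0 with limma-voom, 1 with DESeq2's size factors). That the slopes were alike is not shown by this.

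Split by the ends of maturity, the correlations with body length in colony 3 were low. There rho with body length had a median of 0.142 in the colony-3-rising genes at the low end (55 ants) and of -0.050 at the high end (24 ants), and of -0.176 and 0.063 in the colony-3-falling genes. In colony 4 the medians at the low and high end were 0.257 and 0.377, and -0.279 and -0.470, and in colony 2 they were 0.187 and 0.300, and -0.380 and -0.440. No test of the difference between the ends was made.

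**Figure D4:**
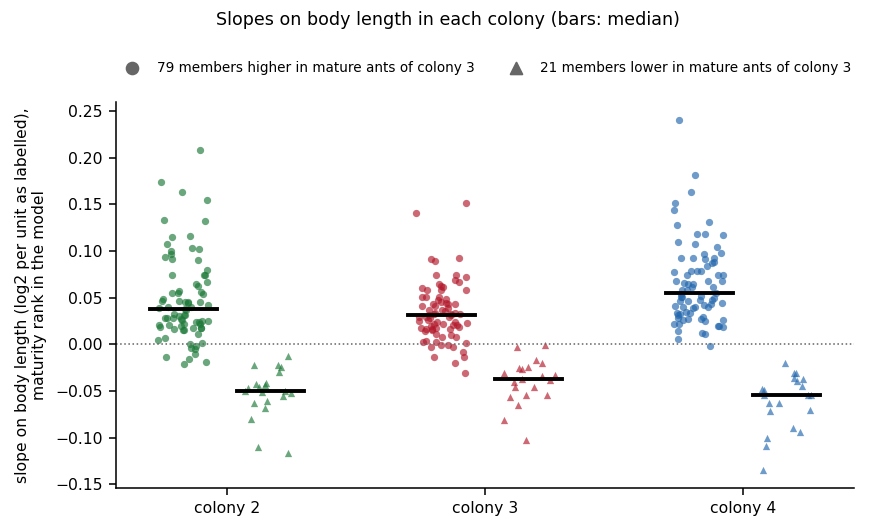
Slope of each member on body length in colonies 2, 3 and 4, in log2 per unit of the label with the maturity rank in the model; circles are the 79 colony-3-rising genes, triangles the 21 colony-3-falling genes and bars their medians. Circles gather above 0 and triangles below 0 in each colony, with medians of 0.031 and -0.037 in colony 3.

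Body length was itself related to maturity in colony 3 by rank. The median maturity of the shortest and longest ants (25% each) was 0.361 and 0.038 in colony 3, 0.912 and 0.738 in colony 2, and 0.067 and 0.153 in colony 4. Pearson's r between them was 0.0060, -0.187 and 0.170 by colony (two-sided permutation p of 0.956, 0.0634 and 0.0817; 0.956, 0.367 and 0.367 after adjustment over 9 relations of maturity with body length, library size and ant number). Spearman's rho was -0.198, -0.288 and 0.085 (permutation p of 0.0656, 0.00373 and 0.385; adjusted, 0.295, 0.0336 and 0.49). Leaving out the 2 ants of most extreme maturity, r was -0.0019, -0.189 and 0.171. For library size and ant number no adjusted permutation p was below 0.319. With body length partialled out of the ranks the reversed signs were found in all 100 members, 68 of them again among the 100 highest scores, and the median absolute rho was 0.255, 0.320 and 0.380, against 0.294, 0.279 and 0.341 without. These genes were chosen for the reversal, and the part of body length in it was not tested.

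What the ants did was also called for members with the maturity rank in the model, but most of these calls were lost with the maturity value added. Nest cleaning was called for 48 members (6.56% of genes tested), of which 37 colony-3-rising genes fell and 11 colony-3-falling genes rose with the tally (3.03% of all genes fell and 3.53% rose). The nurse-forage ratio was called for 38 (10.6% of genes tested), with 28 colony-3-rising genes rising and 10 colony-3-falling genes falling as the ratio rose (5.26% and 5.36% of all genes). Queen attending was called for 24 (4.62% of genes tested), with 20 colony-3-rising genes rising and 4 colony-3-falling genes falling (2.14% and 2.48% of all genes). With the maturity value added beside the rank these counts were 2, 3 and 11, and with runs of 10 ant numbers in place of colony nest cleaning was called for 0 members (8 of 10457 genes). The counts of all genes fell under these settings too and are given in the section on processing. For nest cleaning and the nurse-forage ratio the relation to members was thus not separated from maturity itself.

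For evm.model.ctg143.12 the slope on nest cleaning was -0.037 ± 0.0074 log2 for each doubling of tally + 1 (SE, edgeR adjusted p = 0.000449; 0.0613 with the maturity value added and 0.113 with runs of ant numbers in place of colony). For evm.model.ctg63.26 the slope on the nurse-forage ratio was -0.18 ± 0.040 log2 from 0 to 1 (SE; edgeR adjusted p = 0.000509; 0.216 with the maturity value added), and the slope on queen attending was -0.033 ± 0.0087 log2 for each doubling of tally + 1 (SE; edgeR adjusted p = 0.0152; 0.0584 with the maturity value added). None of these 3 calls was kept with the value of maturity in the model.

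Age and brood care called few members once the maturity rank was in the model. Age was called for 12, 11 colony-3-rising genes rising and 1 falling with age, near the 10.9% of all genes tested (5.94% rose and 5.0% fell). One of these was evm.model.ctg71.42, with a slope of 0.14 ± 0.032 log2 per 12 months (SE; edgeR adjusted p = 0.000305). The count was 3 to 5 when any colony was left out and 5 with the maturity value added. Brood care was called by edgeR for 0 members (2 at an unadjusted p below 0.05; 0 with limma-voom) and for 17 of all genes tested (0.163%). A difference between colonies in the slope on age was called by edgeR for 0 members (8 at an unadjusted p below 0.05; 0 with limma-voom) and for 42 of all genes tested (0.402%).

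**Figure D5:**
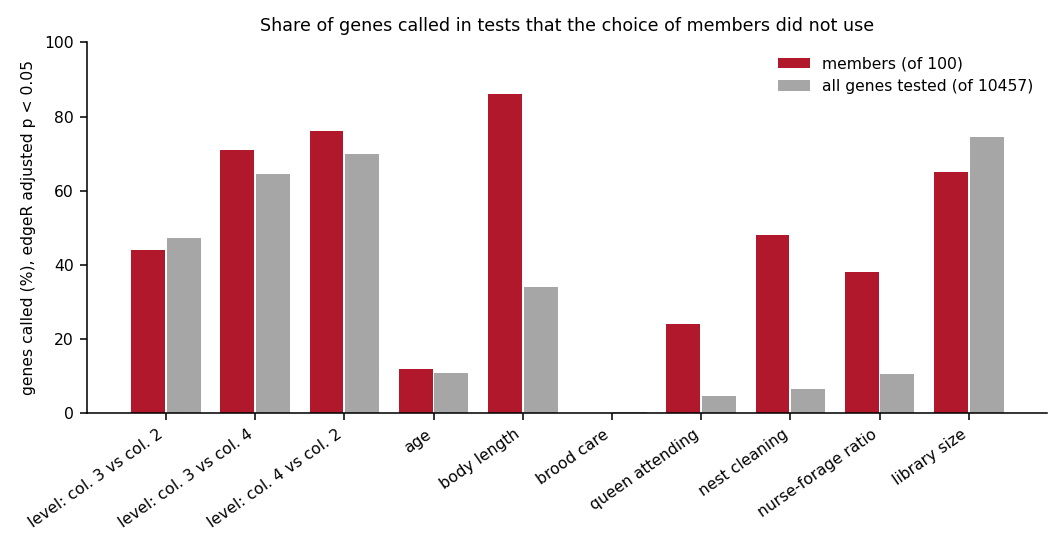
Share of genes called, in percent, among the 100 members (red) and among all 10457 genes tested (grey) for differences in level between colonies and for each label with the maturity rank in the model. The bars differ most for body length, at 86 against 34.1, and for nest cleaning, at 48 against 6.56. Most nest cleaning calls were lost with the maturity value added or with runs of ant numbers in place of colony. For library size the members stand below all genes, at 65 against 74.5.

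In mean level the members differed between colonies about as often as other genes did. At the mean maturity rank of each colony, 44 members differed between colonies 3 and 2 (47.3% of genes tested), 71 between colonies 3 and 4 (64.4%) and 76 between colonies 4 and 2 (69.9%). Of the colony-3-rising genes 46 were lower and 14 higher in colony 3 than in colony 4, where 37.9% of all genes tested were lower and 26.5% higher, and 45 were higher and 15 lower in colony 4 than in colony 2 (39.1% and 30.8% of all genes; 41 and 19 members under size-factor scaling). Against colony 2, 16 were higher and 17 lower in colony 3 (24.2% and 23.1% of all genes). The colony-3-falling genes were split, with 6 higher and 5 lower in colony 3 than in colony 2, 6 and 5 against colony 4, and 8 and 8 between colonies 4 and 2. These comparisons share colonies. The median absolute difference of the called members was 0.10, 0.11 and 0.13 log2 for colonies 3 and 2, 3 and 4, and 4 and 2. Some were larger, with 4, 11 and 9 called members beyond 0.25 log2. The called differences ran from -0.24 to 1.08, from -0.41 to 0.61 and from -0.52 to 0.60 log2.

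Among the named members the level differences were slight. The level of evm.model.ctg63.26 was higher in colony 3 than in colony 4 by 0.10 ± 0.022 log2 (SE; edgeR adjusted p = 1.89e-05). That of evm.model.ctg143.12 was higher in colony 3 than in colony 2 by 0.058 ± 0.023 log2 (SE; edgeR adjusted p = 0.028). Differences in evm.model.ctg15.77 (colony 3 over 4, 0.068 ± 0.030 log2, SE, edgeR adjusted p = 0.0384) and, between colonies 4 and 2, in evm.model.ctg143.12 and evm.model.ctg63.26 (0.049 and -0.053 log2, edgeR adjusted p = 0.0421 and 0.0275) were also called, that in evm.model.ctg143.12 not with DESeq2's size factors (adjusted p = 0.174). For evm.model.ctg71.42 no level difference between colonies was called.

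Runs of ants with neighbouring numbers differed in the members more than unrelated runs would in colonies 3 and 4, and hardly so in colony 2. No test of this was made, and maturity was not removed. The labels do not say whether ant numbers follow extraction or sequencing. Grouped in runs of 10 numbers, with the 10 ants without labels included, the balance of the members had 14.1%, 31.1% and 24.7% of its variance in colonies 2, 3 and 4 between 12, 14 and 14 runs, where unrelated runs would take 12.4%, 12.6% and 12.5%. Run means in colony 3 went from -1.85 to -1.41. The rho of maturity with ant number was 0.146, -0.087 and -0.147 in the 3 colonies. Median rho with ant number in the colony-3-rising genes was -0.127, 0.201 and -0.060 in colonies 2, 3 and 4. It was positive in 7, 77 and 31 of these genes. The colony-3-falling genes had medians of 0.109, -0.089 and 0.031. In both groups the median in colony 3 had the opposite sign to the others, as with maturity. Over all genes with a median CPM of 5 or more the medians were 0.011, 0.080 and -0.089. The part of ant number in the reversal was not tested. With runs in place of colony, 84 members were called for body length, against 86 with colony, where 34.1% of all genes tested were called. The share of all genes with runs is not given here, so the count of 84 has no background beside it.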

How the data were processed

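Libraries were stranded and made from mRNA (KAPA kit, after extraction with Tri reagent, per the labels' protocols). The authors deposited raw counts of reads for each gene model, 1 column per ant. STAR and featureCounts are named per the submitters' processing notes. Versions, genome build, annotation and strandedness of the counting are not given in the sources used here, and reads of overlapping or near-identical gene models may be shared.

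CPM was count over column sum on the usual scale, and the rule of the opening was applied in Python 3.11.15. The members, labels and tests were chosen with earlier results of these data known. Tests across genes used edgeR 4.0.16 in R 4.3.3 (TMM, filterByExpr with a minimum count of 10, robust quasi-likelihood F-tests, Benjamini-Hochberg adjustment over 10457 genes) on 289 ants; the 10 ants without labels were left out of these tests. Each model held colony and the within-colony rank of oriented maturity with a slope per colony, so that a tested label was separated from the rank the rule used; tallies entered as log2 of the tally plus 1 and age per 12 months. Standard errors came from the slope and its F statistic. Spread in these tests is that between ants, within 3 single colonies. The edgeR models were tested on simulated counts. False calls made up 7.69% of the calls for body length, 6.17% for library size and 0.735% to 4.49% in the other models. Of simulated brood care effects of 0.05 log2 per SD 16.4% were recovered, and of 0.2 log2 per SD 75.8%.

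Alternatives were DESeq2 1.42.0 and its size factors, limma-voom (limma 3.58.1), no filter, library size or the maturity value added, and each colony left out. Chosen after seeing the data were runs of 10 ant numbers in place of colony, body length as a rank, head width, behaviours added to the body length model, and body length partialled out of the rule. No ants were merged as duplicates; the most alike pair had a correlation of 0.996, near the median of 0.993 for an ant and its nearest other. Correlations of labels used 100000 permutations. Named genes are the 2 highest scores in each direction.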

Additional observations from a re-analysis of the deposited data

Results flagged for a closer look

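A difference among the 3 colonies in the slope on maturity rank was called for 99 of the 100 members by a joint F-test of that difference (edgeR adjusted p below 0.05; 18.5% of all genes tested). It is listed because slopes differed between groups. The members were chosen for this contrast, so the count describes them and is no independent evidence.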

How the results depend on the processing

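Of the recomputed counts of members, 86 stayed within 1.5 times the reported count and 11 did not. Of the values of single genes 216 kept their call, 21 lost it and 0 changed sign. Body length was called for 65 to 87 members in all 13 alternatives, 65 being without colony 4 and 71 with the rank of head width. The main model called 86 members and 34.1% of all genes tested. The shares of all genes without colony 4 and with head width are not given here. These counts of members alone do not show how far the members stood above other genes there. Age was called for 4, 3 and 5 members without colonies 2, 3 and 4, for 5 with the maturity value added and for 6 with runs of ant numbers. Queen attending was called for 11 members, nest cleaning for 2 and the nurse-forage ratio for 3 with the maturity value added, and nest cleaning for 0 with runs. The list kept 45 genes with Pearson's r and 57 with centred runs. Causes were not tested. Of all genes, body length called 2331 (of 3563) without colony 2, age 650, 737 and 546 (of 1144) without colonies 2, 3 and 4, queen attending 179 and 293 (of 483), nest cleaning 24 and 8 (of 686) and the ratio 353 and 660 (of 1110) with the maturity value and with runs, and brood care 2 (of 17) with the maturity value and 9 with limma-voom. With no filter brood care called 176, and the slope differences 282 for age (of 42; 1 with limma-voom) and 246 for body length (of 0).

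Ant numbers are shared between colonies, and the labels tie no ants by them. Over 57, 65 and 73 shared numbers (colonies 2 and 3, 2 and 4, 3 and 4) the median correlation of same-numbered ants was 0.020, 0.053 and 0.032, with 1, 3 and 3 ants closest to their own number. With the number as a replicate block in limma-voom, level differences were called for 44, 67 and 79 members (colonies 3 and 2, 3 and 4, 4 and 2), against 44, 70 and 79 with limma-voom alone. Small differences in members of few CPM are limited by depth and by spread between ants.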

Other observations

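The 10 ants without maturity labels entered no comparison of colonies or labels, but were among the ants grouped into runs of neighbouring numbers. The balance of the members (mean log2(CPM + 1) of the 79 colony-3-rising genes minus that of the 21 colony-3-falling genes) ran from -1.86 to -1.55 in 3 such ants of colony 2, from -1.86 to -1.53 in 6 of colony 3, and was -1.51 in 1 of colony 4.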
